A study of Sus scrofa with 4 samples.

Results

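The nuclear genes of the mitochondrial protein import machinery were followed in porcine oocytes matured in vitro, with 28 genes out of the 16050 for which expression values were given. They are the genes whose symbol begins with TIMM or TOMM and a digit, together with TIMMDC1, SAMM50, PAM16, GRPEL1, PMPCA, PMPCB, CHCHD4 and GFER. Such a symbol was carried by 30 rows, of which TOMM6 and TIMM10 were listed without values, and the TIMM10 row was typed as lncRNA. PAM16 and TIMM23 were not found under these symbols and were not analysed here.

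Oocytes of Sus scrofa, from ovaries collected at a slaughterhouse, were cultured as cumulus-oocyte complexes for 44 h in maturation medium. They entered it at the germinal vesicle stage, and metaphase II is the end point of that culture. The medium was used as such (Control) or contained copper sulfate at 25 μg/mL (Cu), a time and dose that the methods give for the experiments in general. Each library was amplified by Smart-seq2, which copies polyadenylated transcripts from a few cells, and held 3 oocytes. Control replicates 1 and 2 and Cu replicates 1 and 3 were analysed, n = 2 libraries per group. Neither the age of the sows nor their breed was given, and nothing states whether the sets of one group came from separate cultures, so the p-values measure only the spread between these libraries, which may be technical.

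Levels are FPKM, fragments per length of transcript and sequenced fragments, as deposited by the authors. The depth of the libraries is unknown, since FPKM do not keep it. The FPKM summed to between 616082 and 672681 per library, and 7923 to 9364 genes reached 1 FPKM, the highest number being in Cu 1. All 12 oocyte markers had values, with sums of 33652 to 34355 FPKM in Control and 26986 to 27167 FPKM in Cu. BTG4 made up most of these sums, with 26512 and 24654 FPKM in Control against 16671 and 17672 FPKM in Cu. Of the 12 oocyte markers, 8 had a log2 fold change above 0 and 4 below, with a median of 0.36. Of 15 cumulus and granulosa markers, 9 had values and together reached 1.52 and 2.09 FPKM in Control against 2.73 and 1.03 FPKM in Cu, and AMH was listed at 0 in every library. Of 6 blood markers, 2 had values, with sums of 0.21 to 0.31 FPKM in Control, 2.0 FPKM in Cu 1 and 0.09 FPKM in Cu 3. Of 5 tested metallothionein, zinc exporter and heat shock genes, listed as a check of the labels, 3 had a log2 fold change above 0 and 2 below. MT1A, a metallothionein, had 5.97 and 7.0 FPKM in Control against 3.31 and 4.44 FPKM in Cu, whereas MT3 had 8.10 and 1.91 FPKM in the Control libraries, and 19.6 and 9.87 FPKM in those labelled Cu. HSPA1L, a heat shock protein, had 0.33 and 0.67 FPKM in Control against 5.0 and 1.57 FPKM in Cu, and SLC30A1, a zinc exporter, had 1.03 and 1.09 FPKM against 1.58 and 1.85 FPKM. The groups are therefore called the libraries labelled Control and Cu.

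Almost all mitochondrial proteins are made in the cytosol and are carried into the organelle by this machinery. The TOM complex forms the common entry through the outer membrane. From there, the SAM complex inserts beta-barrel proteins, the small TIM chaperones and the disulfide relay serve the intermembrane space, the TIM22 complex inserts metabolite carriers into the inner membrane, and the TIM23 complex with its motor draws proteins with a presequence into the matrix, where the processing peptidase removes that presequence. A mature oocyte is largely silent in transcription, and its mitochondria are inherited by the embryo.

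The levels of the import genes differed widely within one complex. TOMM7, a small subunit that stabilises the TOM complex, had 3541 and 2983 FPKM in Control 1 and 2, against 3468 and 3429 FPKM in Cu 1 and 3. By its Control mean it stood above 99.9% of all genes with values, and the groups overlapped. TOMM40, the channel of the same complex, had 0.15 and 0.03 FPKM in Control and 0.11 FPKM in Cu 1, and was listed at 0 in Cu 3. Its paralog TOMM40L was listed at 0 in Control 1 and had 0.22, 0.31 and 0.18 FPKM in Control 2, Cu 1 and Cu 3. The processing peptidase is made of PMPCB, the catalytic subunit, and PMPCA, which recognises the presequence. PMPCB had 53.9 and 154 FPKM in Control against 140 and 251 FPKM in Cu. PMPCA, which RefSeq places on no chromosome of Sscrofa11.1, had 0.36 and 0.27 FPKM in Control against 0.28 and 0.18 FPKM in Cu. The level of PMPCA thus stayed below 1 FPKM in every library while its partner had 53.9 FPKM or more in each.

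The small TIM proteins, which chaperone hydrophobic precursors across the intermembrane space, held the transcripts next to TOMM7 in mean level, TIMM10B and TIMM8B. TIMM10B had 332 and 375 FPKM in the Control libraries, and 239 and 148 FPKM in those labelled Cu. TIMM8B had 190 and 181 FPKM in Control against 235 and 305 FPKM in Cu. Its paralog TIMM8A was listed at 0 in Control 1 and had 0.03, 0.13 and 0.27 FPKM in Control 2, Cu 1 and Cu 3. Together with GFER, the sulfhydryl oxidase of the disulfide relay, which had 0.82 and 0.47 FPKM in Control against 3.15 and 0.76 FPKM in Cu, the genes TOMM40, TOMM40L, TIMM8A and PMPCA did not reach 1 FPKM in 2 libraries, and these 5 were left out of the test.

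**Figure D1:**
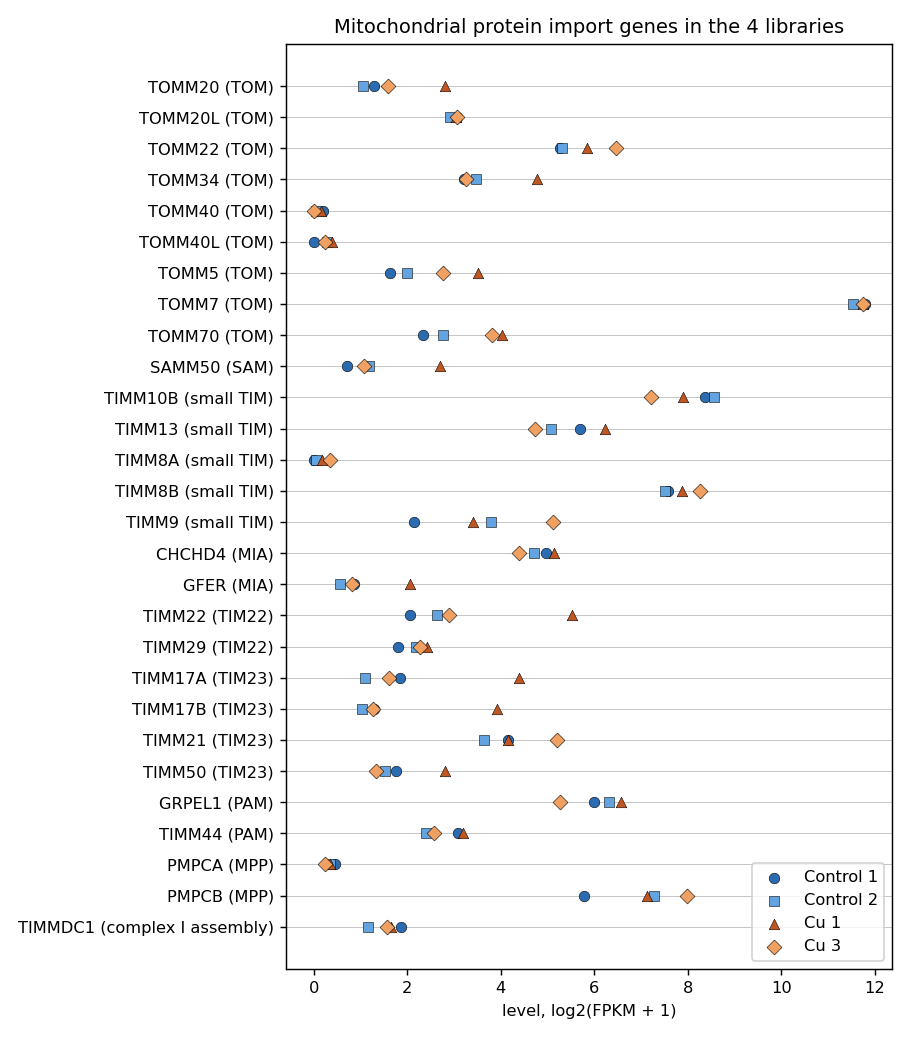
Level of each of the 28 import genes, as log2(FPKM + 1) on the horizontal axis, in Control 1 and 2 (blue) and Cu 1 and 3 (orange), with the complex of each gene in brackets. TOMM7 stands far to the right in all 4 libraries and TOMM40, TIMM8A and PMPCA lie near 0, while Cu 1 stands apart from the other libraries in TIMM22, TIMM17A and TIMM17B.

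To ask whether the import genes differed between Cu-exposed and control oocytes, log2(FPKM + 1) was compared between the libraries labelled Cu and Control with limma over the 8541 genes that reached 1 FPKM in 2 or more libraries, 23 of them import genes. All differences below are on that scale, on which the added 1 makes those of weakly expressed genes smaller. After adjustment by limma, an import gene reached p of 0.05 in 0 of 23 cases, as did 0% of all genes tested. The adjusted p of the import genes was between 0.635 and 0.98. At an unadjusted p of 0.05 or less, 3 of the 23 were higher and 1 was lower in the libraries labelled Cu, compared with 5.58% higher and 1.43% lower among all 8541 genes, or 599 genes in both directions. A log2 fold change of 1.5 in addition was passed by none of the 23 in either direction, and by 1.76% upward and 0.117% downward of all genes. In such bulk libraries, fewer cells with a transcript and less of it per cell cannot be told apart.

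The 3 genes higher at an unadjusted p of 0.05 all encode parts of the TOM complex. TOMM70 (gene 100523641, chromosome 13, 158577026 to 158629878 in Sscrofa11.1), the receptor for metabolite carriers and other precursors without a presequence, had 4.08 and 5.82 FPKM in Control 1 and 2, against 15.3 and 13.02 FPKM in Cu 1 and 3. Both libraries labelled Cu lay well above both Control libraries, by more than the gaps within either group. Its log2 fold change was 1.36 (standard error 0.37, 95% interval 0.46 to 2.27, adjusted p = 0.635 by limma). Among 13 other settings of the fit, its unadjusted p exceeded 0.05 only where a Control library was left out. The log2 fold change was then 1.15 without Control 1 and 1.57 without Control 2.

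TOMM5 (gene 100520533, chromosome 1, 238328894 to 238333066), a small subunit beside the channel, had 2.11 and 2.98 FPKM in the Control libraries, and 10.4 and 5.78 FPKM in those labelled Cu. The groups did not overlap, and the gap between the libraries labelled Cu was wider than that between the Control libraries. Its log2 fold change was 1.32 (standard error 0.42, 95% interval 0.28 to 2.36, adjusted p = 0.652 by limma), and p was 0.05 or less in 11 of 13 other settings.

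TOMM22 (gene 100520786, chromosome 5, 9336114 to 9339867), the central receptor that binds presequences on both sides of the membrane, had 37.7 and 38.9 FPKM in Control against 56.2 and 87.5 FPKM in Cu. The Control libraries were nearly equal, and both libraries labelled Cu were above them. Its log2 fold change was 0.86 (standard error 0.34, 95% interval 0.024 to 1.69, adjusted p = 0.685 by limma). It was 0.54 without Cu 3, and the unadjusted p was 0.05 or less in 5 of 13 other settings. The span of TOMM22 shares 562 bases with JOSD1, which had 1.92 and 2.71 FPKM in Control against 8.18 and 2.92 FPKM in Cu, and reads of overlapping genes could be divided between them. Such an overlap in RefSeq was found for 8 of the 28 import genes, and the table does not give the strand of the reads.

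TOMM20 (gene 100152814, chromosome 14), the receptor for presequences, had 1.43 and 1.08 FPKM in the Control libraries, and 5.95 and 2.0 FPKM in those labelled Cu. The groups did not overlap, but Cu 3 was close to Control, and the 95% interval of the log2 fold change of 1.02 ran from -0.18 to 2.22. That value was 0.42 without Cu 1 and 1.63 without Cu 3. TOMM20L, a close relative of TOMM20, had 7.39 and 6.57 FPKM in Control against 7.24 and 7.38 FPKM in Cu. These 4 values were within 1 FPKM of each other, with a log2 fold change of 0.06 (95% interval -0.79 to 0.91) that turned to between -0.24 and -0.0026 under the other scalings between libraries. TOMM34, a cytosolic factor that binds precursors and chaperones, had 8.23 and 10.02 FPKM in Control against 26.5 and 8.62 FPKM in Cu, with Cu 1 alone standing out. The log2 fold change of TOMM7 was 0.086 (95% interval -0.47 to 0.64) and turned to -0.16 and -0.18 under median-of-ratios and upper-quartile scaling. In all, 7 of 9 TOM genes were tested, with a median log2 fold change of 0.86 that was 0.42 without Cu 1 and 1.45 without Cu 3. Both libraries labelled Cu exceeded both Control libraries in 4 of the 7, and in 25.4% of all genes tested. SAMM50, the core of the complex that inserts beta-barrel proteins, had 0.63 and 1.28 FPKM in the Control libraries, and 5.46 and 1.09 FPKM in those labelled Cu, and only Cu 1 lay outside the range of Control.

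The only import gene lower at an unadjusted p of 0.05 was a small TIM protein. TIMM10B (gene 100623727, chromosome 9, 3248474 to 3249975), which belongs to the chaperone ring that hands carriers to TIM22, had the values given above, with both libraries labelled Cu below both Control libraries. Its log2 fold change was -0.91 (standard error 0.33, 95% interval -1.70 to -0.11, adjusted p = 0.656 by limma), and it stayed between -1.25 and -0.56 over 13 other settings, with p at 0.05 or less in 9 of them. TIMM8B, whose groups did not overlap either, had a positive log2 fold change of 0.52 (95% interval -0.15 to 1.2, adjusted p = 0.728 in limma's fit). That value was 0.34 without Cu 3. By the authors' group means the values were smaller in size, at -0.46 for TIMM10B and 0.21 for TIMM8B.

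TIMM9, which forms the soluble chaperone ring with TIMM10, had 3.44 and 12.9 FPKM in Control against 9.60 and 33.7 FPKM in Cu. The Control libraries were far apart and Cu 1 lay between them, so that the log2 fold change of 1.29 had a standard error of 0.76 (adjusted p = 0.750 by limma). It was 0.46 without Control 1 and 0.43 without Cu 3, but 2.11 without Control 2 and 2.14 without Cu 1. TIMM9 and TOMM20L share 10634 bases on chromosome 1 in RefSeq, and their levels went different ways, TOMM20L being level over the 4 libraries. TIMM13, the partner of TIMM8A, had 51.1 and 32.5 FPKM in Control against 74.1 and 25.7 FPKM in Cu, so that the libraries labelled Cu were the highest and the lowest. CHCHD4, the receptor of the disulfide relay that oxidises incoming proteins, had 30.2 and 25.3 FPKM in the Control libraries, and 34.04 and 19.9 FPKM in those labelled Cu. Again the libraries labelled Cu lay on either side of Control, with a log2 fold change of -0.08 (95% interval -1.01 to 0.85).

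TIMM22, TIMM17A and TIMM17B of the inner membrane had the largest log2 fold changes among the tested import genes, and the widest gaps between the libraries labelled Cu. TIMM22 (gene 100621364, chromosome 12, 46897580 to 46903210), the channel for carrier proteins, had 3.15 and 5.23 FPKM in Control against 44.8 and 6.42 FPKM in Cu. Cu 1 was far above all others, and Cu 3 was just above Control 2. The log2 fold change of TIMM22 was 1.86 (standard error 0.85, adjusted p = 0.709 by limma). It was 0.55 for Cu 3 alone and 3.17 for Cu 1 alone.

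TIMM17A (gene 110255663, chromosome 10, 24200345 to 24211790), a subunit of the TIM23 channel, had 2.57 and 1.12 FPKM in Control against 19.8 and 2.03 FPKM in Cu. TIMM17B (gene 100621014, chromosome X, 42970586 to 42976287), its paralog, had 1.44 and 1.03 FPKM in the Control libraries, and 14.2 and 1.39 FPKM in those labelled Cu. In both genes Cu 3 lay within the range of Control and Cu 1 above it, and reads could be divided between paralogs of like sequence, as also for TOMM20 and TOMM20L, TOMM40 and TOMM40L, and TIMM8A and TIMM8B. Their log2 fold changes were 1.53 and 1.44 with standard errors of 0.90 and 0.85. Without Cu 1 they were 0.14 and 0.10, and without Cu 3 they were 2.92 and 2.77. The span of TIMM17B shares 202 bases with PQBP1, which had 1.76 and 2.52 FPKM in Control against 10.3 and 2.27 FPKM in Cu.

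TIMM21, which links the TIM23 complex to TOM and to respiratory complexes, had 16.9 and 11.4 FPKM in Control against 16.9 and 36.0 FPKM in Cu. Here Cu 3 stood out, and Cu 1 was equal to Control 1. TIMM50, the receptor of the TIM23 complex, had 2.40 and 1.87 FPKM in the Control libraries, and 6.0 and 1.52 FPKM in those labelled Cu, with the libraries labelled Cu highest and lowest. TIMM29, a subunit of the TIM22 complex, had 2.46 and 3.58 FPKM in Control against 4.37 and 3.86 FPKM in Cu, and the 95% interval of its log2 fold change of 0.36 ran from -0.54 to 1.26.

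In the matrix, the import motor showed no common direction. GRPEL1, the nucleotide exchange factor of mitochondrial HSP70, had 62.6 and 78.4 FPKM in Control against 93.9 and 37.6 FPKM in Cu. TIMM44, which holds the motor at the channel, had 7.48 and 4.28 FPKM in the Control libraries, and 8.11 and 4.90 FPKM in those labelled Cu. In both genes the groups overlapped, and the log2 fold changes were -0.23 (95% interval -1.40 to 0.94) and 0.13 (95% interval -0.94 to 1.21), the latter turning to between -0.14 and -0.087 under quantile, median-of-ratios and upper-quartile scaling. PMPCB, with the values given above, differed by a log2 fold change of 1.03 between the groups, with a standard error of 0.56 and an adjusted p of 0.728 by limma, and Cu 1 lay between the Control libraries. The value for PMPCB was 0.28 without Control 1, 1.78 without Control 2 and 0.61 without Cu 3. TIMMDC1, a complex I assembly factor named for its likeness to TIM proteins and no translocase subunit, had 2.64 and 1.24 FPKM in Control against 2.13 and 1.96 FPKM in Cu, with the libraries labelled Cu inside the range of Control.

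**Figure D2:**
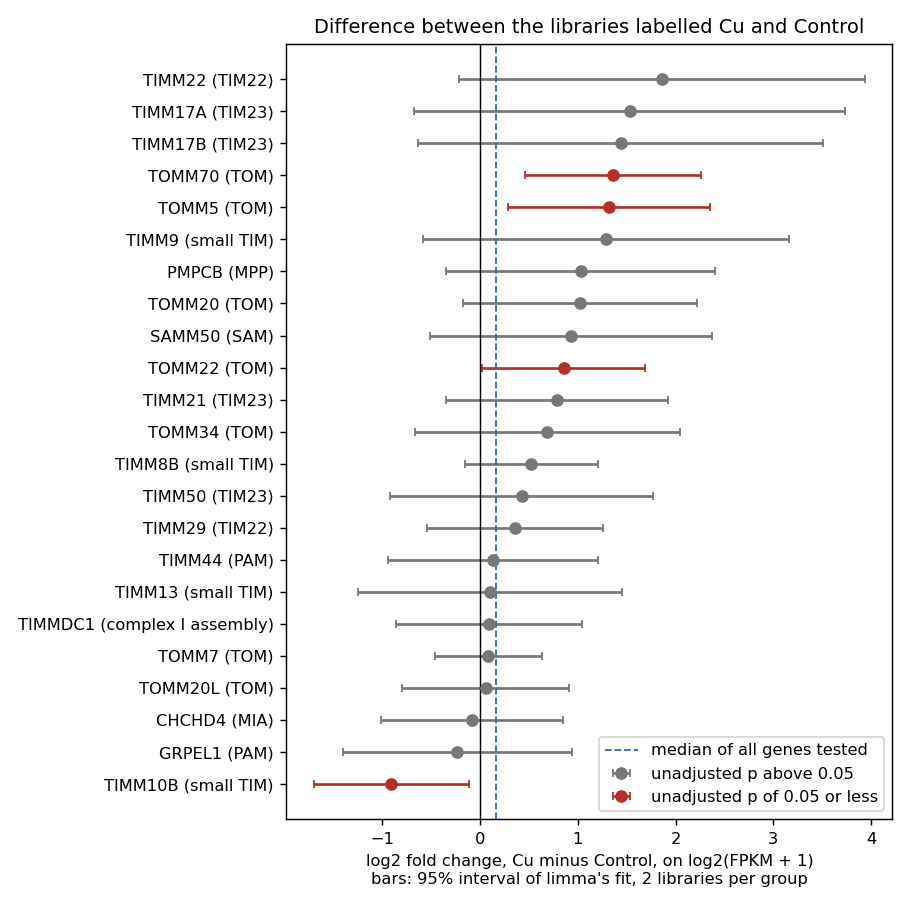
Log2 fold change of the 23 tested import genes between the libraries labelled Cu and Control (horizontal axis, points) with the 95% interval of limma's fit (bars), n = 2 libraries per group. The dashed line is the median of all 8541 genes tested, 0.16, and TOMM70, TOMM5, TOMM22 and TIMM10B (red) are the genes whose interval does not reach 0.

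Over the 23 tested import genes the median log2 fold change was 0.69, with quartiles of 0.097 and 1.16, beside a median of 0.16 for all genes tested, and was 0.12 without Cu 1. Of the 23, 20 had a value above 0, compared with 64.3% of all genes. In 7 of the 23 (30.4%) each library labelled Cu lay above each Control library, and in 1 (4.35%), TIMM10B, each lay below. Among all genes tested these shares were 25.4% and 13.4%. The 7 genes were TOMM70, TOMM5, TOMM22, TOMM20, TIMM22, TIMM8B and TIMM29, which belong to TOM, to the small TIM proteins and to TIM22, while none of the 4 tested TIM23 genes was among them. With 2 libraries against 2, an exact permutation test cannot give a two-sided p below 0.333, so no test was made of a single gene by rank. With all 28 genes entered and no filter on low values, 23 had a log2 fold change above 0 and the median was 0.48, beside 0.093 for all genes. The share of all genes above 0 was not counted without the filter.

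Of the 4 libraries, Cu 1 bore most on the median of the import genes, which was 0.12 without it. In 17 of the 23 tested genes Cu 1 was above Cu 3 (65.7% of all genes), and 14 of the 23 had their highest value in Cu 1, as did 51.0% of all genes. The median distance of the import genes between the replicates was 0.36 for Control and 0.84 for Cu, on the log2 scale and without regard to sign. For all genes it was 0.27 and 0.56. Set against the mean of both Control libraries, 9 import genes were at least 1 log2 unit higher in Cu 1, and 5 in Cu 3, beside 19.7% and 4.78% of all genes.

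The import genes at least 1 log2 unit above the Control mean are named here for each library labelled Cu. In Cu 1, these were TIMM22, TIMM17A, TIMM17B, SAMM50, TOMM5, TOMM20, TOMM70, TOMM34 and TIMM50. In Cu 3, they were TIMM9, PMPCB, TIMM21, TOMM70 and TOMM22. TOMM70 was thus the only import gene at least 1 log2 unit above the Control mean in both libraries, with TOMM5 just short at 0.95 in Cu 3. The share of all genes that high in both libraries was not counted. Across the 23 genes, which are not replicates and share the libraries, Pearson's correlation of the level was 0.97 for the pair of Control libraries and 0.90 for the pair labelled Cu. The 4 pairs across the groups had 0.931, 0.933, 0.934 and 0.969. For all genes tested it was 0.976 for Control and 0.923 for Cu.

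**Figure D3:**
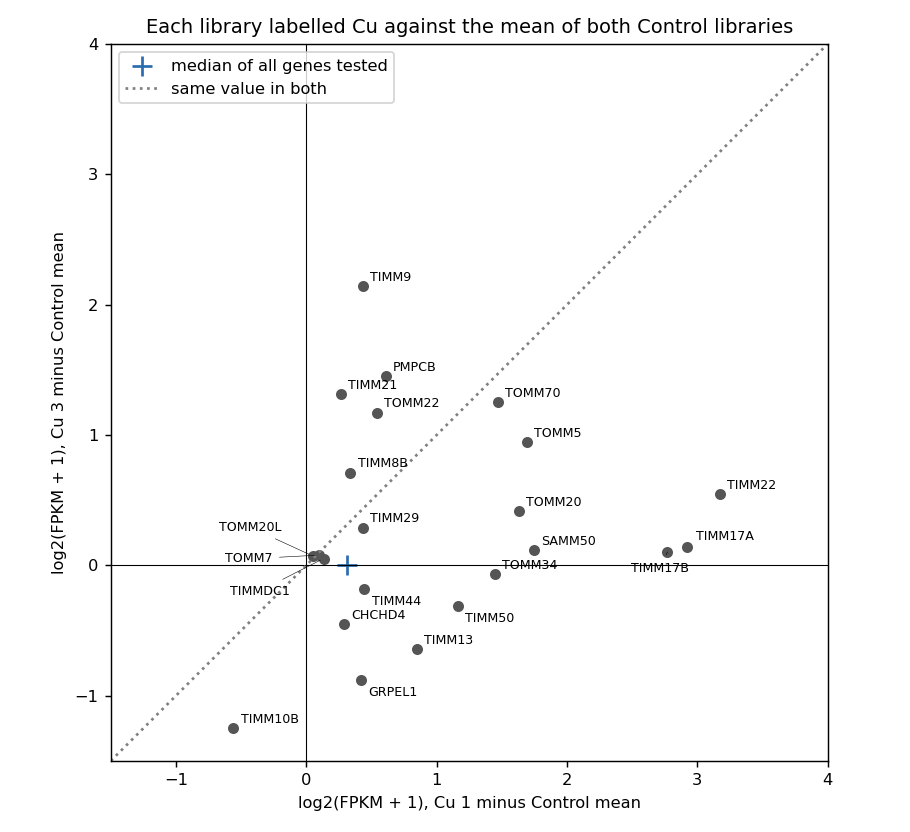
Difference from the mean of both Control libraries in Cu 1 (horizontal axis) and in Cu 3 (vertical axis), in log2(FPKM + 1), for the 23 tested import genes. TIMM22, TIMM17A and TIMM17B lie far to the right and below the dotted line, TIMM9 and PMPCB lie high above the dotted line of equal values, TOMM70 lies close to it, and the cross marks the median of all genes tested.

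When Cu 3 was left out, limma called 9 of the 23 import genes (39.1%) at an adjusted p of 0.05, all of them upward, beside 20.5% of all genes. They were SAMM50, TIMM17A, TIMM17B, TIMM22, TIMM50, TOMM20, TOMM34, TOMM5 and TOMM70. When Cu 1 was left out, 2 of the 23 passed, TIMM9 upward and TIMM10B downward, beside 2.18% of all genes. These fits compare 1 library with 2 and assume that it varies as the Control libraries do. The median of the import genes was then 0.12 without Cu 1, at 0.002 for all genes, and 0.54 without Cu 3, at 0.31 for all genes. The median of the 4 tested TIM23 genes was 1.11 with all libraries, 0.12 without Cu 1 and 1.97 without Cu 3.

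The scale between libraries moved the median of all genes from 0.16 to between -0.058 and -0.042 under quantile, median-of-ratios and upper-quartile scaling. Relative to all genes, the median of the import genes was 0.53 higher as reported and 0.49 to 0.52 higher under these scalings. Under these scalings 15 or 16 of the 23 genes were above 0, and the share of all genes above 0 was not counted. Among all genes, those past both the unadjusted p and the fold limit numbered 150 higher and 10 lower as reported, and 104 higher and 27 lower with upper-quartile scaling. The authors' mean FPKM of each group, given without replicates, had for TOMM70 6.72 in Control and 12.96 in Cu, for TIMM10B 279 and 202, and for TIMM22 3.43 and 25.6. For TOMM7 the authors' means were 4242 and 3458, so that the order was reversed from that of the 4 libraries. On log2(mean FPKM + 1), the authors' means differed by 0.85 for TOMM70, 0.48 for TOMM5, 0.63 for TOMM22 and 0.875 for TOMM20. For TIMM22, TIMM8B, TIMM29 and TIMM10B the differences were 2.59, 0.21, 0.14 and -0.46. Except for TIMM22, these were smaller in size than over the 4 libraries. That the groups of these genes did not overlap was seen in the 4 libraries only. The authors' means have the decimals of a mean over 3 libraries. In Control they were 4.86 for TOMM5, 44.5 for TOMM22, 1.63 for TOMM20 and 219 for TIMM8B, each above both Control libraries. For TIMM10B the Control mean was below both. If these are means over 3 libraries, the groups overlap in the genes just named and in TIMM29. For TOMM70 and TIMM22 the means do not imply an overlap.

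**Figure D4:**
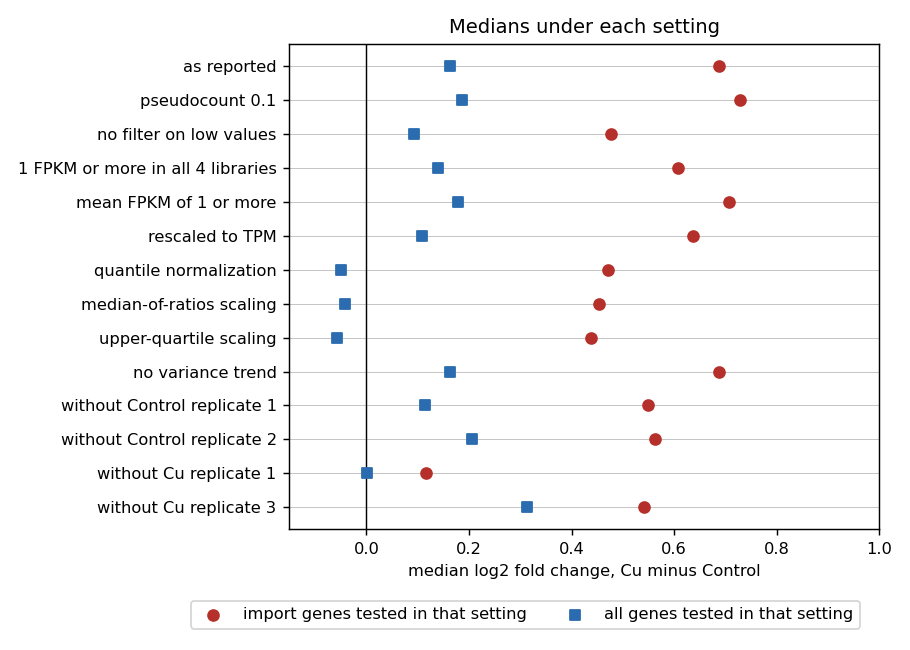
Median log2 fold change between the libraries labelled Cu and Control (horizontal axis) of the import genes (circles) and of all genes (squares) under the reported fit and 13 other settings (vertical axis). The circles lie to the right of the squares throughout, and the distance is smallest without Cu replicate 1.

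Genes of protein import that the choice of symbols did not take in were examined as well. Of 21 import genes outside the rule, 19 were tested, 13 with a value above 0 and 6 below, where 64.3% of all genes were above 0, and the median log2 fold change was 0.15. That median was 0.063 without Cu 1, 0.29 without Cu 3 and 0.26 without Control 1. At an adjusted p of 0.05 limma called 0 of them, and 3 were higher and 0 were lower at an unadjusted p of 0.05, beside 5.58% and 1.43% of all genes. DNAJC15, a relative of the motor's J-protein, had 383 and 937 FPKM in Control against 2446 and 2160 FPKM in Cu. The groups did not overlap for DNAJC15, whose log2 fold change was 1.94 with a standard error of 0.44. HSPE1, the co-chaperonin that folds imported proteins, had 2370 and 2585 FPKM in Control against 4402 and 6028 FPKM in Cu. ROMO1, a subunit of the TIM23 complex, had 9.59 and 14.1 FPKM in Control against 322 and 45.8 FPKM in Cu, with Cu 1 again far above, and its log2 fold change of 3.28 was 1.89 without Cu 1. XPNPEP3, a peptidase that trims imported proteins, had 1.61 and 1.36 FPKM in Control against 4.64 and 2.52 FPKM in Cu.

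The substrates of the disulfide relay gave 11 tested genes out of 18 symbols, all 11 with a value above 0 and 7 with both libraries labelled Cu above both Control libraries, beside 64.3% and 25.4% of all genes tested. Their median log2 fold change was 0.80, and 0.50 without Cu 1. Both lists outside the rule were chosen with earlier results of these data known, so these shares are a description and no test. At an adjusted p of 0.05 limma called 0 of the 11, and 4 were higher at an unadjusted p of 0.05, as were 5.58% of all genes. COX17, the copper chaperone of cytochrome c oxidase, had 65.5 and 112 FPKM in Control against 742 and 259 FPKM in Cu. CMC1, a further assembly factor of that oxidase, had 420 and 379 FPKM in Control against 691 and 697 FPKM in Cu, with close replicates. NDUFS5, a subunit of complex I, had 120 and 102 FPKM in Control against 492 and 226 FPKM in Cu. CMC4, a small protein of the same fold, had 0.46 and 0.59 FPKM in Control against 2.87 and 1.26 FPKM in Cu. CMC4 reached 1 FPKM only in the libraries labelled Cu, and so passed the filter through them alone. Its direction and its lack of overlap were thereby fixed, and it is counted in the 11, the 7 and the 4.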

How the data were processed

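RNA-seq of 4 oocyte libraries was analysed, grouped by the treatment label. According to the methods, reads were cleaned by SOAPnuke, aligned by HISAT2 and Bowtie2 and quantified by RSEM, whereas the submitters' processing notes name TopHat2 2.0.13, Cufflinks 2.2.1, Cuffnorm and Cuffdiff, with the build Sscrofa11.1. The table deposited by the authors holds FPKM, rounded to 2 decimals, and the authors' mean FPKM of each group, which have the decimals of a mean over 3 libraries. Each library has 0.01 as its smallest value above 0, the rounding limit, so reads could not be recovered and depth is unknown, without intervals or floors from it.

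Genes reaching 1 FPKM in 2 or more libraries were compared on log2(FPKM + 1) with limma 3.58.1 in R 4.3.3, with a variance trend, two-sided tests and Benjamini-Hochberg adjustment over all of them. The fit was tested on simulated data. Alternatives were the pseudocount, the filter, the scaling, the variance trend, the fold limit, the authors' means and leaving out each library. The import genes, lists and tests were chosen with earlier results of these data known. Named were genes at an unadjusted p of 0.05, the most abundant and the 2 with the smallest p of each complex, those lower in both libraries labelled Cu and those failing the filter. The remaining tested genes were added after their values were seen. From the lists outside the rule, the 4 with the smallest p were named, and JOSD1 and PQBP1 for their overlap after values were seen. The count test of the study was not used, since FPKM are not counts. Chromosomes and spans are those of RefSeq for Sscrofa11.1, in which all 28 identifiers matched. Protein and promoter sequences were not used here.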

Additional observations from a re-analysis of the deposited data

How the results depend on the processing

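No paired analysis was possible because the groups share only replicate number 1. No import gene passed the limits of p and a log2 fold change of 1.5 as reported. With a pseudocount of 0.1, 2 were higher, with median-of-ratios scaling 1, with upper-quartile scaling 1, and at a fold limit of 1, 2. Among all 8541 genes, 150 were higher as reported, 246 with that pseudocount, and 107 and 104 with these scalings. All genes were not counted at a fold limit of 1. With each library left out in turn this number ran from 0 to 6, the number at an adjusted p of 0.05 from 0 to 9, the number with Cu above Control throughout from 10 to 16 against 7, and the number below from 1 to 5 against 1, which rises by construction as fewer libraries have to be ordered. Median-of-ratios scaling gave 2 genes below. Among all genes, these orders were counted only as reported, so no share is at hand to set beside the numbers of these settings. The highest numbers past both limits and at an adjusted p of 0.05 came without Cu 3, a fit that leaves 1 library labelled Cu. The median ran from 0.12 without Cu 1 to 0.56 without Control 2, against 0.69.

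Signs turned in 9 of the tested genes, TOMM34 and TIMM50 among them only where Cu 1 was left out. TOMM20L had -0.0026 in TPM, -0.24, -0.16 and -0.17 with quantile, median-of-ratios and upper-quartile scaling, and -0.047 by the authors' means. In the same scalings TIMM13 had -0.0057, -0.14 and -0.16, TIMM44 -0.14, -0.087 and -0.10, and TIMMDC1 -0.14, -0.073 and -0.088. TOMM7 had -0.16 and -0.18 in the latter scalings and -0.29 by the authors' means, which gave 0.047 for CHCHD4 and 0.014 for GRPEL1. With each library left out, the ranges were -0.014 to 0.13 for TOMM20L, -0.068 to 1.45 for TOMM34, -0.038 to 0.21 for TOMM7, -0.64 to 0.85 for TIMM13, -0.45 to 0.29 for CHCHD4, -0.31 to 1.16 for TIMM50, -0.88 to 0.42 for GRPEL1, -0.21 to 0.47 for TIMM44, -0.26 to 0.44 for TIMMDC1 and -0.53 to 0.43 for the motor's median. The cause of these turns was not tested.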
